A study of Mus musculus with 9 samples.

Results

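The hedgehog pathway was followed through 10 genes: the ligand gene Shh, the receptor gene Ptch1, the transducer gene Smo, the 3 transcription factor genes Gli1, Gli2 and Gli3, the antagonist gene Hhip, and the co-receptor genes Lrp2, Cdon and Gas1. They were chosen by name, as the rows of the deposited table whose Ensembl identifiers carry these mouse symbols, 10 of 48526 rows, and all 10 had a mean of at least 10 normalized read counts and entered the test. The libraries are bulk RNA of the medial ganglionic eminence, or MGE, a ventral part of the embryonic forebrain and the birthplace of many interneurons of the cortex, taken from C57BL/6 mouse embryos at embryonic day 14.5. There were 4 control and 5 knockout libraries. Every animal carried Nkx2.1-cre, which expresses Cre under Nkx2-1 control, and the Rosa26-YFP reporter. Control replicates 1 to 3 carried no floxed Ctnnb1 allele, control replicate 4 was Ctnnb1fl/wt, and the 5 knockouts were Ctnnb1fl/fl. The Cre acts only in cells with a history of Nkx2-1 expression, so other cells of the dissected region keep the gene. The labels leave unsaid if the libraries are different embryos, so the p-values rest on library-to-library spread, part of which may be technical. Ctnnb1, which encodes beta-catenin, held 5477 to 7661 normalized counts in the knockouts and 9545 to 9967 in the controls (log2 fold change -0.54, limma adjusted p = 0.000811, exact two-sided permutation p = 0.00794, the smallest that 126 splits can give).

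Sonic hedgehog, the product of Shh, binds Patched-1, which otherwise holds Smoothened inactive. Released Smoothened acts through the primary cilium on the Gli proteins, of which Gli1 and Gli2 mainly activate target genes and Gli3 mainly represses them. Gas1, Cdon and the related Boc bind the ligand together with Patched-1, Hhip sequesters it, and the large endocytic receptor megalin, encoded by Lrp2, takes part in its uptake in the forebrain neuroepithelium. In the ventral telencephalon this pathway is known for inducing and maintaining Nkx2-1, and Gli3 for restraining ventral identity.

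Lrp2, Gli3, Smo and Hhip fell in the knockout libraries, and for each of the 4 genes every knockout library lay below every control. The start regions of these 4 genes are shown because the genes moved together. Each sequence is the RefSeq promoter window of GRCm38.p6, the assembly also called mm10, from 250 bases before the annotated start to 50 bases after it, written 5′ to 3′ on the strand of the gene, and capitals mark matches to the motifs named after the sequences. The windows lie at chr2:69585980-69586279 for Lrp2 (minus strand), chr13:15463473-15463772 for Gli3 (plus strand), chr6:29735247-29735546 for Smo (plus strand) and chr8:80057959-80058258 for Hhip (minus strand).
Lrp2: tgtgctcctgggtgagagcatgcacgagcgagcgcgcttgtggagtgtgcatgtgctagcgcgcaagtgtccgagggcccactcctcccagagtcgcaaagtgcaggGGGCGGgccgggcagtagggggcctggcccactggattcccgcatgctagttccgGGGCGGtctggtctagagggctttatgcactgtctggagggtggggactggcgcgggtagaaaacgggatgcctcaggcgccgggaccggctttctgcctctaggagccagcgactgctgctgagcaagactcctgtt
Gli3: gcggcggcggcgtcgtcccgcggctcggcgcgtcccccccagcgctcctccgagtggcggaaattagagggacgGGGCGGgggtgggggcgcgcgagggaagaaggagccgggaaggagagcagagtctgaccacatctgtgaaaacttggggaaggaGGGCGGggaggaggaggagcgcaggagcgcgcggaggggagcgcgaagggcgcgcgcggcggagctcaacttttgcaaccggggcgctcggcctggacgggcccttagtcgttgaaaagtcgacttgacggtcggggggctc
Smo: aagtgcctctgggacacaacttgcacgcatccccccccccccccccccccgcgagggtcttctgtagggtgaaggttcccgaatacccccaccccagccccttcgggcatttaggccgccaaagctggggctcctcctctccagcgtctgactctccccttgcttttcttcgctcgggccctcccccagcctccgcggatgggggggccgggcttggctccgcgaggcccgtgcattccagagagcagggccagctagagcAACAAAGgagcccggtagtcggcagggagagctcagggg
Hhip: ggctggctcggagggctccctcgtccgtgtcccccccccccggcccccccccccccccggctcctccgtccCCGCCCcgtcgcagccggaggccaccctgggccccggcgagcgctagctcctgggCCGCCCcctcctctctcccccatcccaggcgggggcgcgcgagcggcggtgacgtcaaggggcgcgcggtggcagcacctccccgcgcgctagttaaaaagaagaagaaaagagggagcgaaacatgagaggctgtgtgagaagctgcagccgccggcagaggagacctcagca
Windows were found for 8 of the 10 genes; Shh and Gli1 were not among them. Both strands of each window were searched for the GLI motif GACCACCCA, its core CCACCCA, the TCF/LEF motif (4 forms: CTTTGAA first, then CTTTGAT with CTTTGTA, and lastly CTTTGTT), the GC box GGGCGG, the CCAAT box and the TATA box TATAAA. The GC box was present 2 times in each of the Lrp2, Gli3 and Hhip windows, as well as 1 time each in those of Ptch1, Gli2 and Gas1, and 35.7% of 32851 mouse promoter windows hold at least 1. This share is over windows of any GC content, and the share with 2 or more was not counted. The Smo window held 1 TCF/LEF match, from 11 to 17 bases after the start, and 16.9% of all windows hold such a match. It reads CTTTGTT on the opposite strand and so appears as AACAAAG in the printed window. None of the 8 windows held the GLI motif or its core, which 0.253% and 9.30% of all windows hold, so these letters are absent from these 300 bases and nothing follows for more distant sites. The Gas1 and Cdon windows each held a CCAAT box, as do 37.4% of all windows. GC content was 65.0% for Lrp2, 71.0% for Gli3, 67.7% for Smo and 73.7% for Hhip, and 76.3% for Ptch1, 67.3% for Gli2, 62.3% for Gas1 and 44.7% for Cdon, beside a median of 52.7% over all windows. The RefSeq starts used for Cdon, Ptch1, Gli3 and Lrp2 lie inside these genes as GENCODE M21 annotates them. For Cdon, Ptch1 and Gli3 the whole window lies inside the gene. The Gli3 window begins at 15463473 and the annotated gene at 15463235.

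Lrp2 (ENSMUSG00000027070, chromosome 2, 69424340 to 69586065, mm10), the megalin gene, showed the largest change among the 10 genes. Its normalized read count was 113, 137, 163 and 193 in control replicates 1 to 4 and 46.5, 57.7, 43.1, 62.2 and 37.3 in knockout replicates 1 to 5. The highest knockout library was thus far under the lowest control, and the mean went from 152 ± 34.4 (SD, n = 4) to 49.4 ± 10.3 (SD, n = 5), 32.6% of the control level. The log2 fold change, knockout minus control on log2(normalized count + 1), was -1.60 (SE 0.187, limma adjusted p = 7.27e-05), the value at rank 14 from the lowest among the 13780 genes tested.

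Gli3 (ENSMUSG00000021318, chromosome 13, 15463235 to 15730026), the main repressor of the family, held 422, 349, 423 and 537 normalized counts in control replicates 1 to 4. In knockout replicates 1 to 5 it held 181, 277, 125, 277 and 138. The knockouts fell into a higher pair, replicates 2 and 4, and 3 lower libraries, all below the lowest control. The mean was 433 ± 77.8 in control and 199.8 ± 73.6 in knockout, 46.2% of control, with a log2 fold change of -1.17 (SE 0.253, limma adjusted p = 0.00572). With control replicates 2 and 3 as sole controls, the log2 fold change was -1.02 and the limma adjusted p = 0.0722.

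Smo (ENSMUSG00000001761, chromosome 6, 29735503 to 29761365), which encodes the Smoothened receptor, was the most even of the genes that fell. It held 884, 870.1, 922 and 812 normalized counts in control replicates 1 to 4 and 584, 678, 629, 733 and 562 in knockout replicates 1 to 5. The groups did not overlap, and the mean went from 872 ± 45.8 to 637 ± 69.6, 73.0% of control (log2 fold change -0.46, SE 0.0938, limma adjusted p = 0.00206). This call was kept in each of the 21 alternative fits.

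Hhip (ENSMUSG00000064325, chromosome 8, 79965851 to 80058006), a membrane protein that binds hedgehog ligands and is itself a target of the pathway, was the scarcest of the 4. It held 21.2, 26.8, 34.2 and 27.9 normalized counts in control replicates 1 to 4 and 14.8, 18.3, 6.02, 8.61 and 18.1 in knockout replicates 1 to 5. The gap between the groups was narrow, from 18.3 in knockout replicate 2 to 21.2 in control replicate 1. The mean went from 27.5 ± 5.30 to 13.2 ± 5.60, 47.9% of control (log2 fold change -1.10, SE 0.324, limma adjusted p = 0.0170). The limma adjusted p was 0.0542 without control replicate 3 and 0.0592 with control replicates 2 and 3 as sole controls.

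In all, 4 of the 10 genes fell and 0 rose in limma, and the counts were the same 4 and 0 at an unadjusted p under 0.05. Of all 13780 genes tested, 34.5% were called, 17.3% lower and 17.2% higher in knockout, so the 4 of 10 called in either direction is near the background. It was 3 that fell when control replicate 3 was left out (14.8% of all genes tested lower), 3 with control replicates 2 and 3 as sole controls (8.08%), 4 with the replicate number as a block (12.2%) and 5 with no filter on low genes (7.28%). The groups were separated with knockout lower for 4 of the 10 genes and for 14.6% of all genes tested. The median log2 fold change of the 10 genes was -0.41, against -0.01 over all genes tested.

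**Figure D1:**
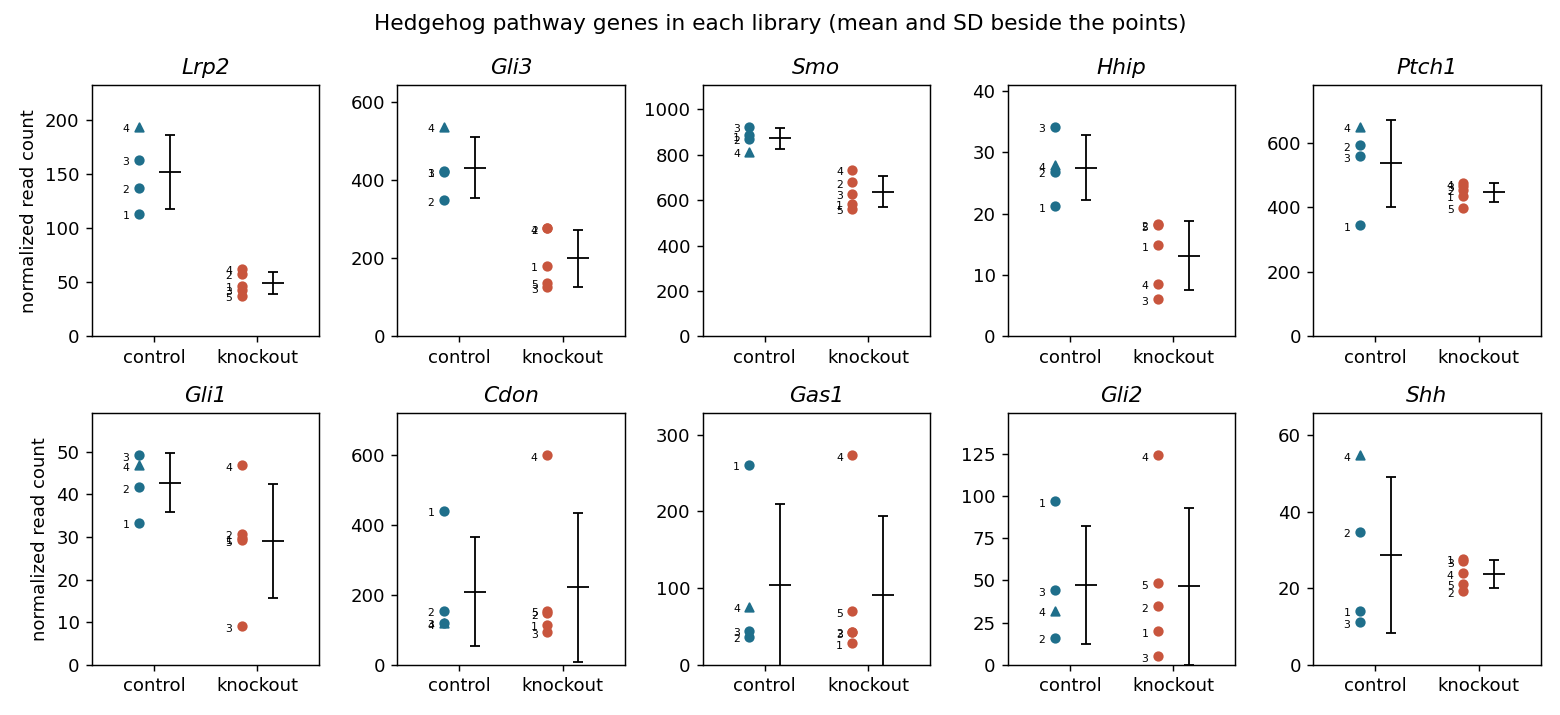
Normalized read count (y axis, from 0) of the 10 hedgehog genes in each control and knockout library, with the replicate number beside each point, the heterozygous control replicate 4 as a triangle, and the group mean and SD to the right of the points. Lrp2, Gli3, Smo and Hhip separate the groups, Ptch1 overlaps through control replicate 1 at 344, and Cdon, Gas1 and Gli2 are highest in control replicate 1 and knockout replicate 4.

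Ptch1 (ENSMUSG00000021466, chromosome 13, 63508328 to 63573598), the Shh receptor gene and a direct target of Gli activators, did not pass the test over all libraries, and 1 library decided this. It held 344, 591, 558 and 649 normalized counts in control replicates 1 to 4 and 435, 454, 466, 475 and 399 in knockout replicates 1 to 5. Control replicate 1 was the lowest of the 9 libraries, and the other 3 controls lay above all knockouts. With all libraries the means were 535 ± 133 and 446 ± 30.1 (log2 fold change -0.23, SE 0.153, limma adjusted p = 0.271). Without control replicate 1 the control mean was 599 ± 46.1 (SD, n = 3), the log2 fold change was -0.43 and the limma adjusted p = 0.00485. In that comparison Ptch1 joined the 4 genes above, so 5 of the 10 fell, beside 14.6% of all genes tested.

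Gli1 (ENSMUSG00000025407, chromosome 10, 127329882 to 127341974), whose transcript is commonly used as a readout of pathway activity, also did not pass. It held 33.4, 41.7, 49.2 and 46.8 normalized counts in control replicates 1 to 4 and 29.7, 30.8, 9.03, 46.9 and 29.2 in knockout replicates 1 to 5. Knockout replicate 4 lay among the controls and the other 4 knockouts lay below the lowest control. The log2 fold change was -0.69 with a 95% interval from -1.47 to 0.09 (limma adjusted p = 0.159). It was -0.33 (limma adjusted p = 0.268) without knockout replicate 3, the lowest library, -0.89 (limma adjusted p = 0.0631) without knockout replicate 4 and -1.01 (limma adjusted p = 0.0698) when both that library and control replicate 1 were left out. With no filter on low genes, which changes the spread shared between genes and the number tested, the limma adjusted p was 0.0383.

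Shh (ENSMUSG00000002633, chromosome 5, 28456815 to 28467256), the ligand gene, was low in every library. It held 14.2, 34.8, 11.1 and 54.8 normalized counts in control replicates 1 to 4 and 27.7, 19.2, 27.1, 23.9 and 21.2 in knockout replicates 1 to 5. The controls spread on both sides of the knockouts, and the heterozygous control replicate 4 was the highest library. The means were 28.7 ± 20.3 and 23.8 ± 3.67, and the log2 fold change was near 0 with a 95% interval from -0.83 to 0.83 (limma adjusted p = 0.998). The interval leaves room for a change of either sign of this size.

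Cdon, Gas1 and Gli2 shared a pattern that did not follow the genotype: each was highest in control replicate 1 and knockout replicate 4. Cdon (ENSMUSG00000038119, chromosome 9, 35421128 to 35507652), an immunoglobulin superfamily co-receptor, held 441, 155, 121 and 119 normalized counts in control replicates 1 to 4 and 115, 147, 92.3, 599.9 and 154 in knockout replicates 1 to 5. Gas1 (ENSMUSG00000052957, chromosome 13, 60174405 to 60177365), a membrane-anchored co-receptor, held 261, 36.7, 44.2 and 75.7 in the controls and 27.7, 43.3, 42.1, 274 and 69.5 in the knockouts. Gli2 (ENSMUSG00000048402, chromosome 1, 118834132 to 119053619), the main activator of the family, held 97.0, 15.9, 44.2 and 31.9 in the controls and 19.8, 34.6, 5.02, 124 and 48.4 in the knockouts. For all 3 genes these libraries, of opposite genotype, stood above the other 7. Among 9705 named genes whose mean reached 50, leaving out predicted and clone symbols, 4 (0.0412%) held at least 2 times as much in both of these libraries as in the highest of the other 7, and Gas1 (3.44 times) and Cdon (2.84 times) led them. The others were Pax6 (2.30 times), a transcription factor gene of dorsal and lateral progenitors, and Tnfrsf19 (2.03 times). Gli2, with a mean of 46.8, was outside that set of genes and stood at 2.01 times. This pattern was chosen after the values were seen and has no test.

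Group means of these 3 genes say little while both libraries are in. The log2 fold change of Cdon was -0.05 with a 95% interval from -1.56 to 1.45, that of Gas1 was -0.26 with an interval from -2.17 to 1.65, and that of Gli2 was -0.36 with an interval from -2.45 to 1.72. Without both libraries Cdon had a control mean of 131 ± 20.4 (SD, n = 3) and a knockout mean of 127 ± 28.9 (SD, n = 4), and the interval of its log2 fold change narrowed to -0.47 to 0.34. Gas1 then stood at 52.2 ± 20.7 and 45.7 ± 17.4, with an interval from -0.89 to 0.50, and Gli2 at 30.7 ± 14.2 and 26.9 ± 18.7, with a log2 fold change of -0.44 (SE 0.688). None of the 3 passed in either fit. In the same comparison the log2 fold changes of Lrp2 and Smo were -1.81 and -0.50, and those of Gli3, Hhip and Ptch1 were -1.32, -1.10 and -0.45, all 5 past the threshold in limma, beside 12.5% of all genes tested that were lower.

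**Figure D2:**
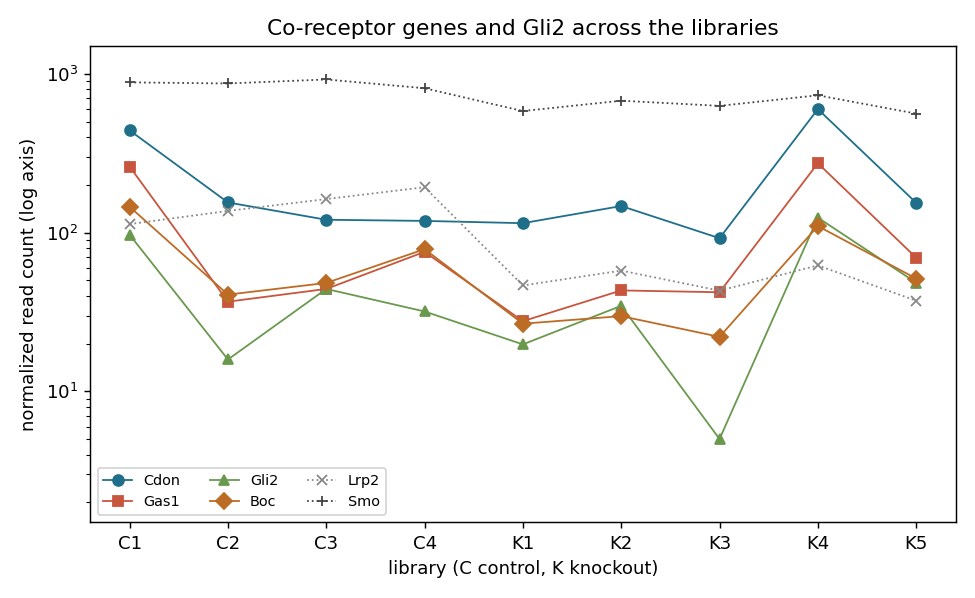
Normalized read count (log axis) of Cdon, Gas1, Gli2 and the related co-receptor gene Boc, with Lrp2 and Smo as dotted lines, in the 4 control (C1 to C4) and 5 knockout (K1 to K5) libraries; lines only join the points of 1 gene. Cdon reaches 441 in C1 and 599.9 in K4 and stays at or below 155 elsewhere, while Lrp2 and Smo show no such peaks.

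Markers of other tissue varied in the same libraries. The summed level of 8 cortical markers was 2670 in control replicate 1 and 370.3 in knockout replicate 4, against 79.7 to 587 in the other 7 libraries, so knockout replicate 4 lay within the range of the rest. The summed level of 5 choroid plexus markers, 4 of them tested, was 2997 and 720.5 in these libraries, against 153 to 497 in the others. Ttr held 2691 of the sum in control replicate 1, and Otx2 held 410.5 of that in knockout replicate 4. The summed MGE markers (Nkx2-1, Nkx6-2, Lhx6 and Lhx8) were at 6868 in control replicate 1, the lowest of all libraries, and at 9132 in knockout replicate 4, against 8849 to 11503 elsewhere. Within its own group knockout replicate 4 was also the lowest, as the knockouts ran from 9132 to 11371. Lhx6 is also counted among the neuron markers below, which rose in knockout. Over all libraries none of the markers of cortex, choroid plexus, vessels, erythroid cells, meninges, microglia or oligodendrocyte precursors passed in limma, and 1 cortical and 2 microglial markers were lower at an unadjusted p under 0.05. Of the 3 microglial markers tested, all 3 were called lower without knockout replicate 5, 2 with the replicate block, and 1 without control replicate 2 or without control replicate 3. Without control replicate 1, 1 cortical marker was called higher, and without knockout replicate 4, 1 choroid plexus marker was called lower. The part of other tissue in the levels of Cdon, Gas1, Gli2 and Ptch1 was not tested.

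Radial glia and neuron markers moved between the groups beside the genes that fell. The summed level of 11 radial glia markers was 21800.3 to 27168 in control and 12902 to 16707 in knockout, 62.9% of the control mean, and 7 of the 11 fell and 0 rose in limma (8 and 0 at an unadjusted p under 0.05, median -0.87). The summed level of 10 markers of postmitotic MGE neurons was 17826 to 26309.5 in control and 35722 to 44907 in knockout, and all 10 rose. Beside these marker counts, 17.3% of all genes tested were lower and 17.2% higher in knockout. Lrp2 at 32.6%, Gli3 at 46.2% and Hhip at 47.9% of control lay under the radial glia sum, and Smo at 73.0% lay above it. In bulk RNA fewer cells of a type and less RNA per cell cannot be told apart, and the part of the change in radial glia in these values was not tested.

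**Figure D3:**
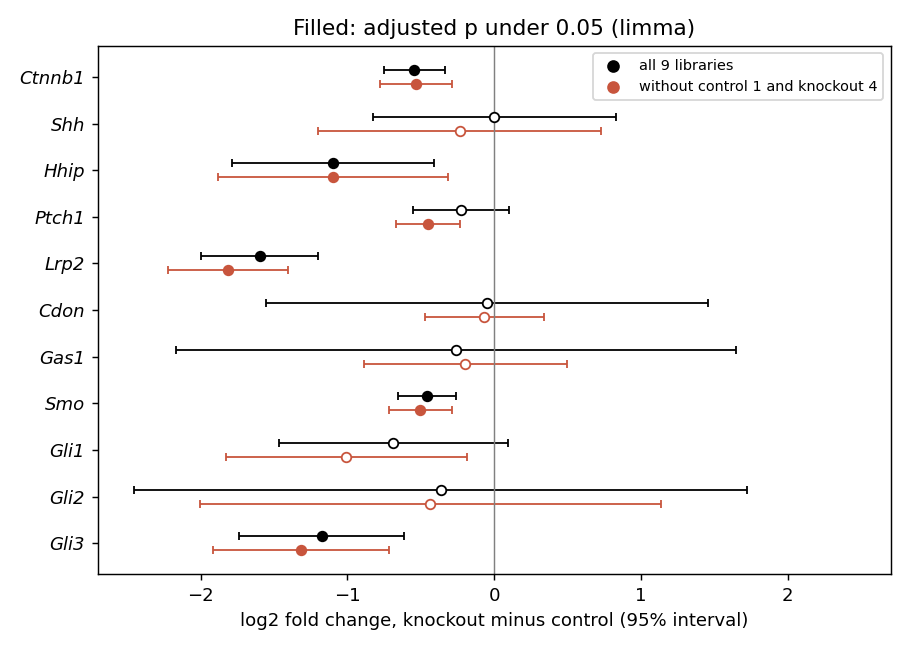
Log2 fold change, knockout minus control, with its 95% interval, of Ctnnb1 and the 10 hedgehog genes over all 9 libraries (black) and without control replicate 1 and knockout replicate 4 (red); filled points have a limma adjusted p under 0.05. Lrp2 is farthest from 0 at -1.60, Ptch1 is filled only without the 2 libraries at -0.45, and the intervals of Cdon and Gas1 shrink most.

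Whether members changed by unequal amounts was tested on 6 within-library differences of log2(normalized count + 1). Library scaling cancels in them except through the added 1, which weighs most on low genes such as Hhip and Gli2. Lrp2 minus Cdon went from -0.25 ± 1.19 in control to -1.79 ± 0.887 in knockout, a shift of -1.54 (exact two-sided permutation p = 0.0635, adjusted over the 6 differences 0.190). Lrp2 minus Gas1 shifted by -1.34 (exact permutation p = 0.183, adjusted 0.310). Hhip minus Ptch1 shifted by -0.87 (exact permutation p = 0.0635, adjusted 0.190) and Smo minus Ptch1 by -0.23 (exact permutation p = 0.317, adjusted 0.317). Among the transcription factors, Gli3 minus Gli2 shifted by -0.81 and Gli3 minus Gli1 by -0.49 (exact permutation p = 0.317 and 0.206, adjusted 0.317 and 0.310). None of the 6 passed, so an unequal change within these pairs was not shown over all libraries. Without control replicate 1 and knockout replicate 4, both Lrp2 differences separated the groups, with shifts of -1.75 against Cdon and -1.62 against Gas1, and reached the smallest p that the 35 splits allow (exact permutation p = 0.0286, adjusted 0.0857).

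Levels of the 10 genes were ordered per kilobase of annotated exon. In control libraries Smo stood highest at 155 ± 8.14 normalized counts per kilobase, apart from the next gene by more than its spread. Gli3 (45.1 ± 8.12), Ptch1 (37.7 ± 9.39), Gas1 (35.2 ± 35.7) and Cdon (27.1 ± 20.2) followed, and these neighbours did not differ beyond their spread. Shh (10.1 ± 7.15), Lrp2 (9.08 ± 2.06), Gli1 (8.57 ± 1.41) and Gli2 (6.88 ± 5.12) formed a lower set that likewise overlapped, and Hhip was lowest at 3.03 ± 0.584, within the spread of Gli2. In knockout libraries Smo (113 ± 12.4) was still first and Hhip (1.45 ± 0.617) last. Gli3 at 20.8 ± 7.68 then stood under Ptch1 (31.4 ± 2.12), Gas1 (30.8 ± 34.8) and Cdon (28.7 ± 27.6), and Lrp2 at 2.96 ± 0.619 stood under Gli2 (6.76 ± 6.77), Gli1 (5.83 ± 2.69) and Shh (8.37 ± 1.29). Gas1 and Cdon overlapped Gli3 within their spread, and Gli2 and Gli1 overlapped Lrp2, so these orders were not settled. Knockout replicate 4 was the highest knockout library for Gas1, Cdon and Gli2 and raised their knockout means.

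For the members with a mean of at least 50, the genes with the most similar profile over the 9 libraries were found by the root mean square difference of log2 values centred on each gene's mean. Hk2, which encodes hexokinase 2, was nearest to both Gli3 (difference 0.160) and Lrp2 (0.234), whose own root mean square spread was 0.701 and 0.839. Hk2 held 184.7 to 225 normalized counts in the controls and 55.4 to 119.6 in the knockouts, so its groups did not overlap. Dctd, a deoxycytidylate deaminase gene, was next for Gli3 (0.191) and Cdca7l next for Lrp2 (0.241). Nup133 of the nuclear pore was nearest to Smo (0.0647, own spread 0.254). Babam2 and Tnpo1 were nearest to Ptch1 (0.0829 and 0.0862, own spread 0.270). Tnfrsf19 and Cachd1 were nearest to Gas1 (0.381 and 0.424, own spread 1.12). Foxp4 was among the 2 nearest to Cdon (0.423, own spread 0.871). These are likenesses over 9 libraries that share the group difference.

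Other genes of the pathway were called in both directions, as were 34.5% of all genes tested, 17.3% lower and 17.2% higher. The shares called among the genes of ligand release and reception, of transduction and of the cilium were all under 34.5%. Of 9 genes of ligand release and reception, 7 were measured, 2 rose and 0 fell in limma (4 and 0 at an unadjusted p under 0.05, median log2 fold change 0.30). Scube1 and Scube3 encode secreted proteins of a family that helps release lipid-bound hedgehog from the producing cell. Scube1 rose in knockout, at 50.3 ± 9.25 normalized counts in control and 170.1 ± 63.3 in knockout (log2 fold change 1.69, SE 0.221, limma adjusted p = 0.000183). Scube3 rose as well, at 51.1 ± 11.7 and 116 ± 37.9 (log2 fold change 1.15, SE 0.229, limma adjusted p = 0.00199). For both genes every knockout library lay above every control. The co-receptor gene Boc held 146, 40.7, 48.2 and 78.7 normalized counts in control replicates 1 to 4 and 26.7, 29.8, 22.1, 110.03 and 51.4 in knockout replicates 1 to 5, again highest in control replicate 1 and knockout replicate 4, and did not pass (limma adjusted p = 0.284). Without knockout replicate 4 alone, 1 gene of this list, Boc, was called lower. The number of the list that rose was 3 without knockout replicate 2, without knockout replicate 3 and with no filter on low genes. Scube2 held 0.962 to 4.95 normalized counts in knockout replicates 1 to 3, 92.8 in knockout replicate 4 and 22.2 in knockout replicate 5, against 0.993 to 2.99 in the controls, and did not pass (limma adjusted p = 0.0945). The ligand genes Dhh and Ihh were under the minimum mean.

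Between Smoothened and the Gli proteins, 3 of 14 measured genes rose and 1 fell (median 0.11). Gpr161, a ciliary receptor that keeps the pathway low through cyclic AMP, rose from a mean of 489 ± 80.4 to 743 ± 58.2 (log2 fold change 0.61, limma adjusted p = 0.000875). Btrc, a ubiquitin ligase subunit that takes part in Gli3 processing, rose by 0.55 on the log2 scale, and Prkacb, a catalytic subunit of protein kinase A, by 0.38. Prkacb did not pass without control replicate 4 (limma adjusted p = 0.0503) and its groups overlapped. Without control replicate 2 the number that fell was 2. Spop, an adaptor for the degradation of full-length Gli2 and Gli3, fell from 933 ± 39.5 to 676 ± 73.0 (-0.47, limma adjusted p = 0.00168). Sufu, the cytoplasmic inhibitor of Gli proteins, held 466 ± 45.3 and 455 ± 25.8, and the 95% interval of its log2 fold change was -0.23 to 0.17. Kif7 held 150.4 ± 15.9 and 147 ± 13.9, with an interval from -0.29 to 0.22.

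Of 25 measured genes of the primary cilium, 5 fell, 1 rose and 19 did not pass (median -0.09), and the share that fell is near the 17.3% of all genes tested. Evc and Evc2, which encode the 2 partners of Smoothened at the base of the cilium, fell together. Evc went from a mean of 289 ± 25.7 to 186 ± 20.9 (log2 fold change -0.64, limma adjusted p = 0.000734) and Evc2 from 157 ± 16.6 to 93.8 ± 13.5 (-0.74, limma adjusted p = 0.000933), each with no overlap between the groups. Cep290 of the transition zone fell by 0.73, and Tctn2 and Ift80, named here after their values were seen, by 0.39 and 0.40. Kif3a, a motor subunit of ciliary transport, rose by 0.53. The number that fell was 3 when control replicate 2, control replicate 4 or knockout replicate 3 was left out, and with control replicates 2 and 3 as sole controls it was 2.

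Of 10 genes known to respond to hedgehog signals in the ventral forebrain, 6 fell and 1 rose (median -0.61). Of all genes tested, 17.3% were lower and 17.2% higher. Olig2, a ventral progenitor factor, fell from a mean of 1401 ± 157 to 747 ± 180.3 (log2 fold change -0.93, limma adjusted p = 0.000830). Mycn fell by 0.80 on the log2 scale, the mitotic transcription factor gene Foxm1 by 0.71 and the cyclin gene Ccnd2 by 0.51. Of the genes named after their values were seen, Ccnd1 fell by 1.51 and Cdk6 by 1.37, and Olig1 rose by 0.48 with overlapping groups. Several of these genes serve the cell cycle of any progenitor, and the list was written with earlier results of these data known. Nkx2-1 held 5718 ± 1033 and 4442 ± 782 and did not pass (limma adjusted p = 0.0706). Olig1 did not pass without control replicate 1, 2 or 4 or without knockout replicate 3 or 5, and 8 genes fell without knockout replicate 2.

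Of 14 measured genes of the family of Lrp2 and its partners, 3 rose, near the 17.2% of all genes tested that rose. Vldlr, a reelin receptor gene, rose from a mean of 90.5 ± 13.4 to 231 ± 28.2 (log2 fold change 1.35, limma adjusted p = 2.53e-05) and Lrp1 from 1724 ± 458 to 3766 ± 859.98 (1.14, limma adjusted p = 0.00163). For both genes every knockout library lay above every control, the opposite direction to Lrp2. Lrp3 rose by 0.47. Cubn and Amn, whose products bind megalin in absorptive epithelia, were under the minimum mean.

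**Figure D4:**
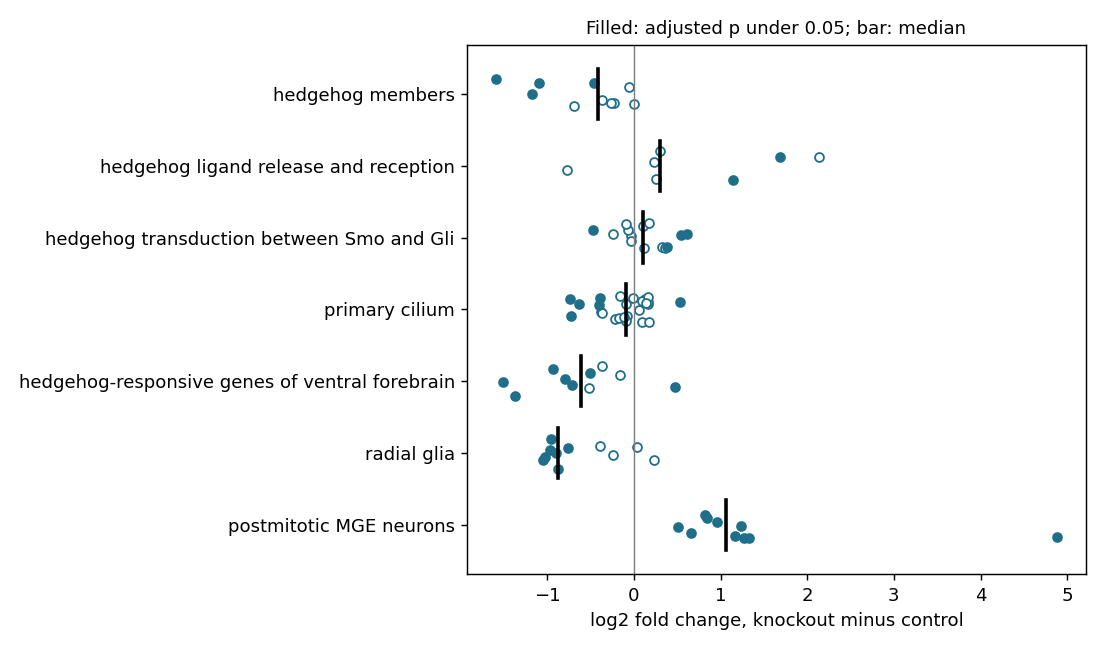
Log2 fold change, knockout minus control, of each measured gene of the 10 hedgehog members, 4 further lists and 2 marker lists; filled points have a limma adjusted p under 0.05, bars are list medians and the vertical spread within a list is only to separate points. The hedgehog members have 4 filled points, all below 0, the cilium list has 5 below and 1 above 0, and all 10 neuron markers lie above 0.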

How the data were processed

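One deposited table of 48526 Ensembl genes was used. Its values are a signal per gene that the authors deposited as normalized counts, which behave as read counts divided by a single size factor per library. The submitters' processing notes name mm10 and list HTSeq 0.9.1, TopHat2 2.1.1, DESeq2 and R 3.4.0. What each did, the annotation release and the strand setting: not given in the sources used here. Values were whole multiples of a step per library (within 0.01), which puts the totals at 5120585 to 5569444 reads; the unit check did not accept recovered reads for every column, so no count model was fitted.

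The main test was limma 3.58.1 (trend, robust; statmod 1.5.0, R 4.3.3), two-sided, on log2(value + 1) for the 13780 genes whose mean reached 10; p-values were adjusted by Benjamini-Hochberg and the threshold was 0.05. This scale understates fold changes of low genes. Means carry an SD and log2 fold changes an SE. Ctnnb1 and the within-library differences were tested by exact permutation. Positions and exon lengths are from GENCODE M21, through which 48058 identifiers have a symbol. Without strand, overlapping genes cannot be told apart; those overlapping the 10 genes held at most 11.1 normalized counts in any library. The members and all gene and marker lists were chosen with earlier results of these data known. Named genes are the 10 members, Ctnnb1, up to 4 genes past the threshold with the smallest p from each of 5 lists, and the 2 nearest profiles per member; a few of these are not reported here. On simulated data for this comparison (13780 genes, 50 changed genes per size), limma recovered 100% of log2 changes of -2 and 2, 82% of those of -1 and 96% of those of 1, and 13 of its 202 calls were false. The simulation gave every gene the same dispersion, had no outlying libraries and changed far fewer genes than were called here. Its shares are therefore not the power for spread-out genes such as Cdon, Gas1 and Gli2. The alternatives changed the pseudocount (0.5, 8), the filter (none, or 50), the scaling (upper quartile, TMM), the limma options (plain, quality weights), the covariates (replicate block, embryo sex) or the libraries (each left out, controls 2 and 3 only). Leaving out control 1 together with knockout 4 was added after seeing the data.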

Additional observations from a re-analysis of the deposited data

Results flagged for a closer look

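Cdon in knockout replicate 4, whose 599.9 normalized counts compare with 92.3 to 154 in the rest of its group, lay apart from its group by more than Dixon's limit on the log2 scale (gap 0.727 of the range). Scube3 in control replicate 2, at 33.8 against 54.6 to 58.3 in the other controls, did so as well (gap 0.879 of the range). These were 2 of the 58 groups of values examined, and chance alone flags about 1 group in 20. Gas1 and Gli2 in knockout replicate 4, and all 3 genes in control replicate 1, did not pass this limit.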

How the results depend on the processing

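Lrp2, Smo and Ctnnb1 kept their direction and their call in each of the 21 alternative fits. The number of the 10 genes that fell was 3 to 5 over the fits that left out 1 library and 0 rose; it was 3 with control replicates 2 and 3 as sole controls, beside 8.08% of all genes tested that were lower. With those controls alone 1387 genes were higher and 1112 lower in all, against 2369 and 2380. Genes that did not pass changed sign in some fits. Shh was at -0.044 with a pseudocount of 8, -0.0099 with TMM scaling and -0.24 without both control 1 and knockout 4, and at -0.34 to 0.40 when 1 library was left out. Gli2 was at 0.15 with controls 2 and 3 only and at -0.87 to 0.22 when 1 library was left out. Cdon was at 0.072 with library quality weights, 0.32 with controls 2 and 3 only and -0.50 to 0.39 when 1 library was left out. Gas1 was at 0.63 with controls 2 and 3 only and at -0.79 to 0.33 when 1 library was left out. Cep290 and Lrp3 did not pass with controls 2 and 3 only (limma adjusted p = 0.114 and 0.129), nor did Prkacb (0.196), which also missed without both control 1 and knockout 4 (0.0748). With the replicate block, in which knockout replicate 5 shares its number with no control and so does not contribute, 1829 genes were higher and 1681 lower, and the same 4 of 10 hedgehog genes were called lower: Lrp2 at -1.50, Gli3 at -1.06, Hhip at -1.23 and Smo at -0.41. The labels give no pairing: deviations of same-numbered libraries correlated at -0.117, -0.0916, 0.137 and -0.0406, and no control correlated best with the knockout of its own number. The 6 within-library differences passed after adjustment in none of the 13 alternatives run for them. Where libraries were left out there were fewer splits, and a single difference at the smallest possible p could not pass after adjustment over 6. That smallest p was 0.0179 with 1 control left out, 0.0143 with 1 knockout left out and 0.0476 with controls 2 and 3 only. Lrp2 minus Cdon reached it without control replicate 1 (exact permutation p = 0.0179, adjusted 0.107). The log2 fold changes of Gli2, Gas1 and Cdon had the largest SE of the 10 genes over all libraries (0.899, 0.819 and 0.644), and Hhip, Shh, Gli1 and Gli2 had the lowest means (19.6 to 46.8 normalized counts).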
